A study of Mus musculus with 7 samples.

Results

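Enteroendocrine genes were followed through 7 bulk RNA-seq libraries of sorted mouse Paneth cells. The list named 36 genes: granule and vesicle genes, prohormone enzymes, transcription factors, enterochromaffin genes and peptide hormones. Of these names, 35 matched 1 of the 52550 genes counted in the files. The name written "Reg3?" does not say which Reg3 gene is meant and was matched to none. All 35 matched genes were among the 17449 that passed the filter on low counts. All mice were C57BL/6J and carried the Lgr5-EGFP-IRES-CreERT2 allele, in the controls as well as in the treated mice. The 4 DSS libraries came from mice given 3% dextran sulfate sodium, an agent that injures the intestinal epithelium, in their drinking water for 7 days and killed 3 days after it was withdrawn. The 3 water libraries came from mice kept on normal water for the same time. The mice of water 1, water 2 and DSS 1 were 12 weeks old and those of the other libraries 10 weeks.

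Enteroendocrine cells are scattered hormone-producing cells of the gut epithelium, each releasing serotonin or peptides from dense-core granules. They arise from crypt progenitors that transiently express Neurog3, after which Neurod1, Pax4, Pax6 and related factors direct their differentiation. Paneth cells, the cells named in the labels, are neighbours in the crypt base that secrete antimicrobial peptides and lysozyme. Per the labels' protocols, dissociated small intestinal crypts were stained for CD24 and CD117 and gated on CD24 and side scatter, with dead cells and those bearing TER119, CD31 or CD45 gated out. No marker of enteroendocrine cells is named among the stains.

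The libraries held between 23175708 and 32451653 counts, at which 3 counts corresponded to 0.0924 to 0.129 CPM, the unit of a gene's count scaled to the total of its library. The labelled cell type was checked on 11 Paneth markers, which summed to 277320, 293086 and 285619 CPM in water 1 to 3 and to 232828, 181738, 135235 and 143876 CPM in DSS 1 to 4. CPM values are scaled by TMM, a normalisation that assumes most genes do not differ between libraries. Whether each library stands for 1 animal is not said in the labels, so the p-values reflect only how far these samples differ, which may in part be technical. Water 1 and water 2 shared their age and their RNA isolation day, day 14 of November. The other isolation days were 21 for water 3 and 9, 16, 16 and 24 for DSS 1 to 4, so day and treatment cannot be told apart. The titles of water 3, DSS 2 and DSS 3 have the number 19083 in common, and what it stands for is not given in the labels. All pairs of libraries differed by more than sampling noise (lowest chi-square per degree of freedom 14.5, between water 1 and water 3).

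Promoters are shown for 3 genes the results turn on: the granule gene Chga, the serotonin enzyme gene Tph1 and the hormone gene Sst. Each is the 200 bases before the RefSeq start site (GRCm38.p6), 5′ to 3′ on the strand of the gene.
Chga promoter, chr12:102554741-102554940, plus strand: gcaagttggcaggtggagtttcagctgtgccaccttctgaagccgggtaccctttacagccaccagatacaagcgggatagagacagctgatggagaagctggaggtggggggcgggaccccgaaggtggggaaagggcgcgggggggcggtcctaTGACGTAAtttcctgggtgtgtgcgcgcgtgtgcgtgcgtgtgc
Tph1 promoter, chr7:46672538-46672737, minus strand: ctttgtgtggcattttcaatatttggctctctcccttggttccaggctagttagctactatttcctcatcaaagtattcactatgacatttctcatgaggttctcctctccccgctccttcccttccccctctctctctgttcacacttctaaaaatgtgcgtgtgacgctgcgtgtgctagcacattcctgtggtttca
Sst promoter, chr16:23890845-23891044, minus strand: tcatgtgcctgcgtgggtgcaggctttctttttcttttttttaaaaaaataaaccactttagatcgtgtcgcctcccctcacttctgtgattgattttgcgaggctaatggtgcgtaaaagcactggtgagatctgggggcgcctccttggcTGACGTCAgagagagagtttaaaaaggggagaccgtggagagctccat
Capitals mark the cyclic AMP response element TGACGTCA in Sst, which begins 48 bases before the start, and the variant TGACGTAA in Chga, which begins 44 bases before it. The same 8 letters, in capitals, stood in 4 further promoters, shown with 11 bases on each side.
Chgb, chr2:132781559-132781588, plus strand: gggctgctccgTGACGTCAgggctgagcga
Scg2, chr1:79440076-79440105, minus strand: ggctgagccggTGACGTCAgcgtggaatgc
Pax6, chr2:105668809-105668838, plus strand: tctggccgccgTGACGTCAtccgcgcccgg
Pcsk1, chr13:75089768-75089797, plus strand: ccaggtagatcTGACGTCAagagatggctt
These began 72, 68, 76 and 78 bases before the RefSeq start. The windows of Chgb and Scg2 lie inside the gene as GENCODE draws it.

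RefSeq promoters, from 250 bases before to 50 after the start, were at hand for 30 of the 35 genes. TGACGTCA, which reads the same on both strands, was in 5 of the 30, against 1.79% of all 32851 promoters. The variant TGACGTAA, searched on both strands after the Chga sequence had been seen, was in Chga alone of the 30, against 0.5% of all promoters. CATCTG, an E-box of the kind that Neurod1 binds, was searched on both strands and was in 7 of the 30 (Neurod2, Nkx2-2, Tac1, Cck, Gcg, Sct and Ucn3), against 17.15% of all. The looser E-box CANNTG, which contains CATCTG, was in 22 of the 30, against 72.31%, and TATAAA on either strand was in 4, against 13.62%. A match describes letters in this window and is not a binding site.

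Most of the 35 genes varied together between libraries of the same treatment, and the widest differences were among the water libraries. Their summed level was 245 CPM in water 1, 2262 CPM in water 2 and 3880 CPM in water 3. In DSS 1 to 4 it was 1489, 1123, 2070 and 2015 CPM, inside the range of the water libraries. Water 1 held the lowest level of the 7 libraries for 31 of the 35 genes, against 13.1% of all tested genes. Water 3 held the highest for 27 of the 35, and DSS 2 the lowest of the DSS libraries for 30. The shares of all genes for these last counts were not taken, so they describe the 35 genes only. In bulk samples, fewer cells of a type and less RNA per cell cannot be told apart.

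Among genes with a mean of at least 5 CPM, 26 of 27 enteroendocrine genes differed at least 2-fold between the highest and the lowest water library, against 1.65% of all 11445 genes at that level. A range of at least 10-fold was seen for 17 of the 27, against 0.481%, and all 55 genes with such a range were lowest in water 1. The median range was 18.5-fold for the 27 enteroendocrine genes and 1.14-fold for all. The count rests on 1 library: without water 1, 4 of the enteroendocrine genes ranged at least 2-fold between the remaining water libraries. The floor of 5 CPM then applied to the mean without water 1, and the share of all genes with such a range was not taken. The median biological coefficient of variation, the spread between libraries of a group that edgeR estimates for each gene, was 0.597 for the 35 genes and 0.0991 for all genes with a mean of at least 5 CPM.

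**Figure D1:**
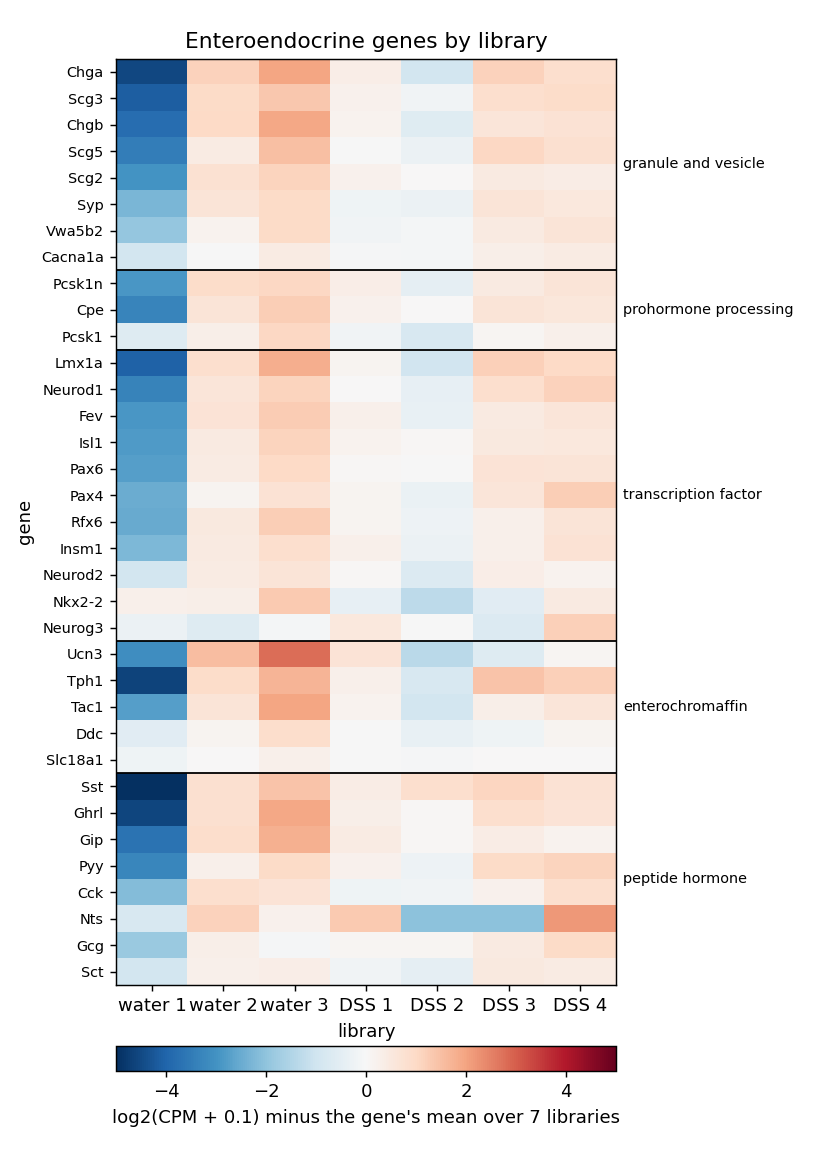
Level of the 35 genes (rows, grouped by role) in each library (columns), as log2(CPM + 0.1) minus the gene's mean over the 7 libraries. The water 1 column is lowest in 31 of 35 rows, and Neurog3, Nkx2-2, Nts and Pcsk1 are the exceptions.

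The difference was not of 1 size for all genes. Water 2 stood over water 1 by less than 3-fold for 7 genes, by 3- to 10-fold for 8, by 10- to 30-fold for 13 and by at least 30-fold for 7. Water 3 was above water 2 for all but Cck, Gcg and Nts, by 2.52-fold at most (Tac1). Intervals on these ratios are at 95% and cover counting error only.

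**Figure D2:**
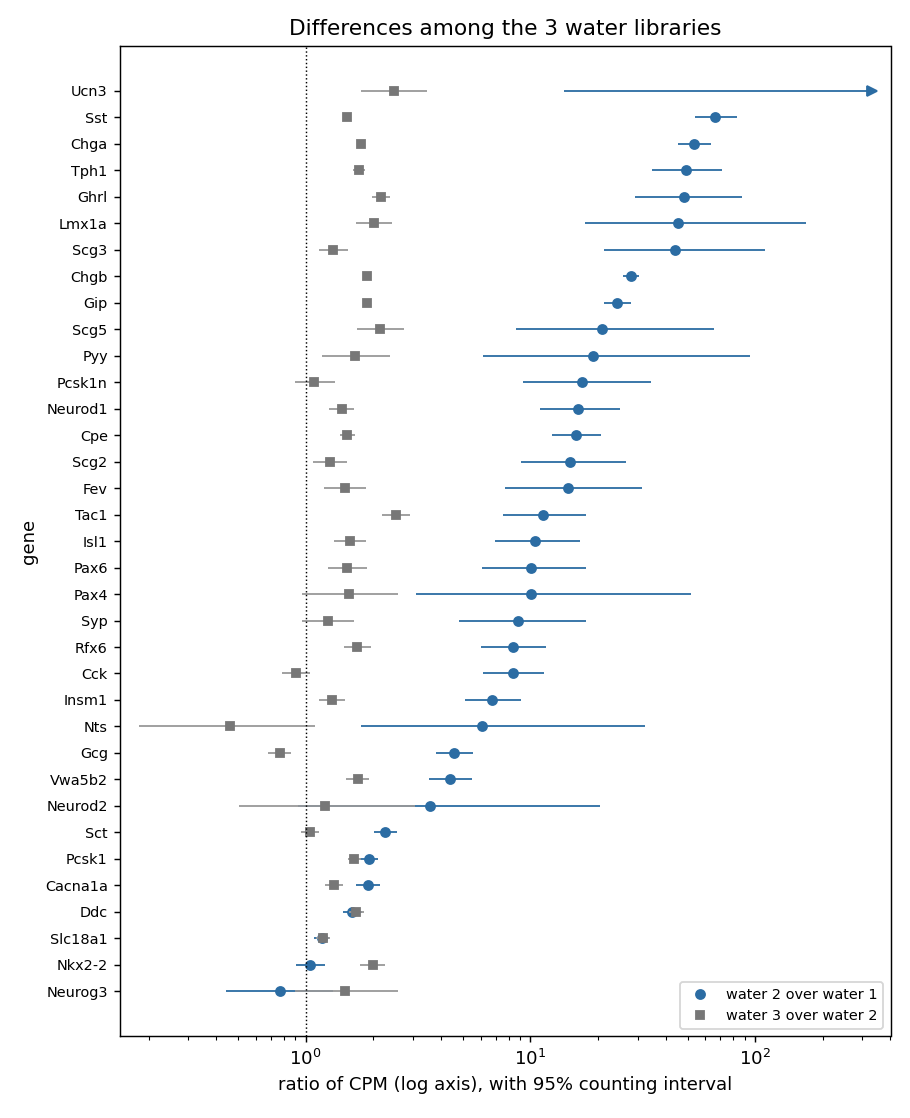
Ratio of CPM between water libraries for each gene, on a log axis, with 95% counting intervals: circles give water 2 over water 1, squares water 3 over water 2. Sst is highest among the finite ratios of water 2 over water 1 at 66.6 and Neurog3 lowest at 0.769, and the arrow for Ucn3 starts at the lower limit of its interval, since it had 0 counts in water 1.

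Granule genes showed this most plainly. Chga (chromogranin A, a matrix protein of dense-core granules; chr12:102554969-102565028 in the files) was at 6.34, 339 and 595 CPM in water 1 to 3 and at 191, 80.9, 341 and 267 CPM in DSS 1 to 4. Water 2 was 53.5-fold above water 1 (45.3 to 63.6), and the 4 DSS libraries lay between these water libraries or just above water 2. Chgb, chromogranin B, followed the same order in water: 28.4, 797 and 1493 CPM in water and 448, 257, 598 and 653 CPM in DSS.

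The secretogranins are granule proteins related to the chromogranins. Scg2 was at 0.71, 10.7 and 13.8 CPM in water and at 7.36, 6.42, 8.55 and 8.23 CPM in DSS. Scg3, which helps to bring chromogranin A to granules, was at 0.31, 13.8 and 18.3 CPM in water and at 8.20, 6.21, 12.6 and 13.6 CPM in DSS. Scg5, a chaperone of the prohormone convertase PC2, was at 0.22, 4.66 and 10.0 CPM and at 3.44, 2.80, 7.25 and 6.07 CPM. For Scg2, Scg3 and Scg5 alike, water 1 was lowest, water 3 highest and every DSS library between them.

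Syp, the vesicle protein synaptophysin, was at 0.54, 4.71 and 5.91 CPM in water and at 2.51, 2.39, 4.67 and 4.31 CPM in DSS. Vwa5b2 was at 4.51, 19.8 and 33.7 CPM in water and at 15.6, 16.4, 24.2 and 27.1 CPM in DSS. Cacna1a, the pore of a voltage-gated calcium channel, spanned less: 18.1, 34.3 and 45.8 CPM in water and 33.5, 31.8, 41.9 and 45.5 CPM in DSS. Its ratio of water 2 over water 1 was 1.89 (1.67 to 2.14), against a median of 18.0 for the 8 granule and vesicle genes.

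Genes of prohormone processing differed in the same way. Cpe, the carboxypeptidase that trims cleaved prohormones, was at 3.12, 49.6 and 75.8 CPM in water and at 37.1, 32.2, 49.8 and 48.0 CPM in DSS. Pcsk1n, which encodes the convertase inhibitor proSAAS, was at 0.49, 8.31 and 9.10 CPM and at 5.51, 3.12, 5.94 and 6.89 CPM. Pcsk1, the convertase itself, was at 32.3, 61.8 and 101.9 CPM in water and at 44.0, 28.4, 53.1 and 59.7 CPM in DSS. Water 1 was thus the lowest library for Cpe and Pcsk1n, while for Pcsk1 it lay above DSS 2, and water 2 over water 1 was 1.91 (1.74 to 2.10).

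Among the 11 transcription factors, 6 had at least 10-fold more in water 2 than in water 1. Neurod1, a factor of early enteroendocrine differentiation, was at 1.20, 19.7 and 28.4 CPM in water and at 13.1, 9.60, 23.4 and 29.1 CPM in DSS. Lmx1a, a LIM homeodomain factor of enterochromaffin cells, was at 0.18, 8.12 and 16.3 CPM and at 4.98, 2.30, 10.3 and 9.08 CPM. Its 4 counts in water 1 leave the ratio of 45.5 with an interval from 17.4 to 169. Water 1 was the lowest library for both genes, and water 3 was the highest for Lmx1a only.

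Fev, an ETS factor that is also known from serotonin neurons, was at 0.45, 6.53 and 9.77 CPM in water and at 4.76, 3.03, 5.50 and 6.19 CPM in DSS. Pax6 was at 0.76, 7.64 and 11.7 CPM and at 5.99, 5.74, 9.41 and 8.96 CPM, and Isl1, a LIM homeodomain factor, at 1.12, 11.7 and 18.5 CPM and at 9.74, 8.81, 11.9 and 12.3 CPM. Rfx6, a winged-helix factor, was at 1.87, 15.6 and 26.6 CPM in water and at 12.1, 9.19, 13.4 and 17.5 CPM in DSS. Fev, Pax6, Isl1 and Rfx6 shared 1 order in water, with water 1 lowest and water 3 highest of all libraries.

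Insm1, a zinc-finger factor, was at 2.54, 17.2 and 22.5 CPM in water and at 14.9, 10.2, 14.8 and 20.3 CPM in DSS. Pax4 was at 0.13, 1.35 and 2.10 CPM and at 1.37, 0.94, 1.89 and 2.97 CPM, and Neurod2 at 0.13, 0.48 and 0.59 CPM and at 0.35, 0.18, 0.45 and 0.39 CPM. Pax4 and Neurod2 each had 3 counts in water 1, so their ratios of water 2 over water 1, 10.1 (3.10 to 51.7) and 3.59 (0.924 to 20.3), are loosely set.

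Neurog3 and Nkx2-2 did not follow the others. Neurog3, the progenitor factor (chr10:62133090-62134763), was at 1.56, 1.20 and 1.80 CPM in water and at 2.78, 1.88, 1.17 and 4.46 CPM in DSS. Its ratio of water 2 over water 1 was 0.769 (0.441 to 1.32), an interval that includes 1. Nkx2-2, a homeodomain factor (chr2:147177546-147194243), was at 16.1, 16.9 and 33.5 CPM in water and at 10.3, 5.39, 9.14 and 18.5 CPM in DSS, with water 2 over water 1 at 1.05 (0.901 to 1.22). Neither was lowest in water 1, where Neurod1 and Chga were.

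The counting used no strand option, and 7 of the 35 genes share exon bases with a gene on the opposite strand. For Neurog3 this is Fam241b, which had 192 to 402 counts a library, and for Nkx2-2 it is Nkx2-2os, which had 0 counts in all libraries. Reads of Neurog3 and Fam241b over shared bases cannot be told apart.

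Among the enterochromaffin genes, Tph1, Tac1 and Ucn3 differed widely between the water libraries. Ddc differed less, with a range of 2.71-fold, and Slc18a1 least, with 1.41-fold. Tph1, the rate-limiting enzyme of serotonin synthesis in the gut (chr7:46644641-46672537), was at 1.47, 72.1 and 124 CPM in water and at 45.4, 21.9, 103 and 88.7 CPM in DSS, a 49.0-fold step from water 1 to water 2 (34.7 to 71.4). Tac1, the precursor of substance P, was at 1.16, 13.2 and 33.1 CPM in water and at 9.48, 4.45, 10.2 and 13.1 CPM in DSS. Ucn3, urocortin 3, had 0 counts in water 1, 2.40 CPM in water 2 and 5.91 CPM in water 3, and 1.28, 0.24, 0.45 and 0.82 CPM in DSS. Set against a floor of 3 counts in water 1, water 2 was at least 17.9-fold higher, and the 95% counting interval of the ratio, which also takes in the counting error of water 2, started at 14.1.

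Ddc, the decarboxylase that completes serotonin synthesis, was at 28.6, 46.3 and 77.8 CPM in water and at 41.2, 32.3, 36.4 and 46.0 CPM in DSS, with water 2 over water 1 at 1.62 (1.46 to 1.79). Slc18a1, the vesicular monoamine transporter VMAT1, was at 52.1, 61.3 and 73.4 CPM in water and at 60.6, 59.6, 61.6 and 62.0 CPM in DSS. Its ratio of water 2 over water 1 was 1.18 (1.09 to 1.28), beside 49.0 for Tph1 in the same libraries. Water 1 was still the lowest library for both Ddc and Slc18a1.

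Ratios to Chga per kilobase of transcript were taken within each library. Over the water libraries they spanned less than 1.5-fold, a limit chosen after the values were seen, for 4 of the 33 genes with counts in all 3 libraries: Tph1, Lmx1a, Ghrl and Sst. Tph1 over Chga was 0.104, 0.0950 and 0.0933 in the water libraries and 0.106, 0.121, 0.135 and 0.148 in the DSS libraries. Lmx1a over Tph1 was 0.220, 0.205 and 0.239 in water and 0.199, 0.191, 0.182 and 0.186 in DSS. Ghrl over Chga was 0.270, 0.245 and 0.301 in water and 0.308, 0.613, 0.248 and 0.283 in DSS, and Sst over Chga 2.88, 3.59 and 3.11 in water and 4.79, 15.3, 4.32 and 4.29 in DSS. Similar proportions to Chga in water 1 follow from how these 4 genes were picked, and the other 29 genes spanned at least 1.5-fold. Chga and each of the 4 were far lower in water 1 than elsewhere. Lmx1a had 4 counts and Ghrl 15 in water 1, so their ratios there are loosely set. In DSS the ratio to Chga spanned 1.39-fold for Tph1 and 1.30-fold for Lmx1a, and 2.48-fold for Ghrl and 3.56-fold for Sst, both highest in DSS 2.

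Other ratios to Tph1 moved. Tac1 over Tph1 was 1.43, 0.332 and 0.484 in water and 0.379, 0.370, 0.180 and 0.267 in DSS. Slc18a1 over Tph1 was 40.5 in water 1, 0.972 in water 2 and 0.674 in water 3, and between 0.682 and 3.11 in DSS. Ucn3 over Tph1 was 0.139 and 0.199 in water 2 and 3 and 0.118, 0.0450, 0.0181 and 0.0386 in DSS, so that every DSS library lay below both of these water libraries. These ratios were not tested.

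The peptide hormones differed among themselves in how far they spread over the water libraries. Sst, somatostatin (chr16:23889581-23890844), was at 3.97, 264 and 402 CPM in water and at 198, 269, 320 and 250 CPM in DSS. Water 2 was 66.6-fold above water 1 (54.0 to 83.0). Ghrl, ghrelin, was at 0.67, 32.4 and 70.3 CPM in water and at 23.01, 19.4, 33.05 and 29.6 CPM in DSS. Gip, the incretin of K cells (chr11:96024545-96030831), was at 9.50, 231 and 434 CPM in water and at 166, 132, 163 and 141 CPM in DSS.

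Gip was among the genes whose DSS libraries all lay below water 2 and water 3 and above water 1, and its 4 DSS values spanned 1.26-fold. Pyy, peptide YY of L cells, was at 0.13, 2.55 and 4.24 CPM in water and at 2.51, 1.80, 4.23 and 4.80 CPM in DSS. Cck, cholecystokinin of I cells, was at 2.19, 18.2 and 16.6 CPM in water and at 8.77, 8.98, 11.7 and 18.6 CPM in DSS. Gcg, the proglucagon of L cells (chr2:62474530-62483650), was at 6.02, 27.6 and 21.1 CPM in water and at 23.8, 24.1, 30.6 and 43.8 CPM in DSS. Cck and Gcg were thus the hormones, beside Nts, for which water 2 and not water 3 was the higher of the pair.

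Sct, secretin, was at 17.8, 40.3 and 42.2 CPM in water and at 30.1, 24.8, 47.6 and 45.1 CPM in DSS, with water 2 over water 1 at only 2.26 (2.01 to 2.56). Nts, neurotensin, was near the floor: 0.13, 0.82 and 0.38 CPM in water, 0.93 and 1.76 CPM in DSS 1 and DSS 4, and 0 counts in DSS 2 and DSS 3, where 3 counts would be 0.0884 and 0.103 CPM.

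**Figure D3:**
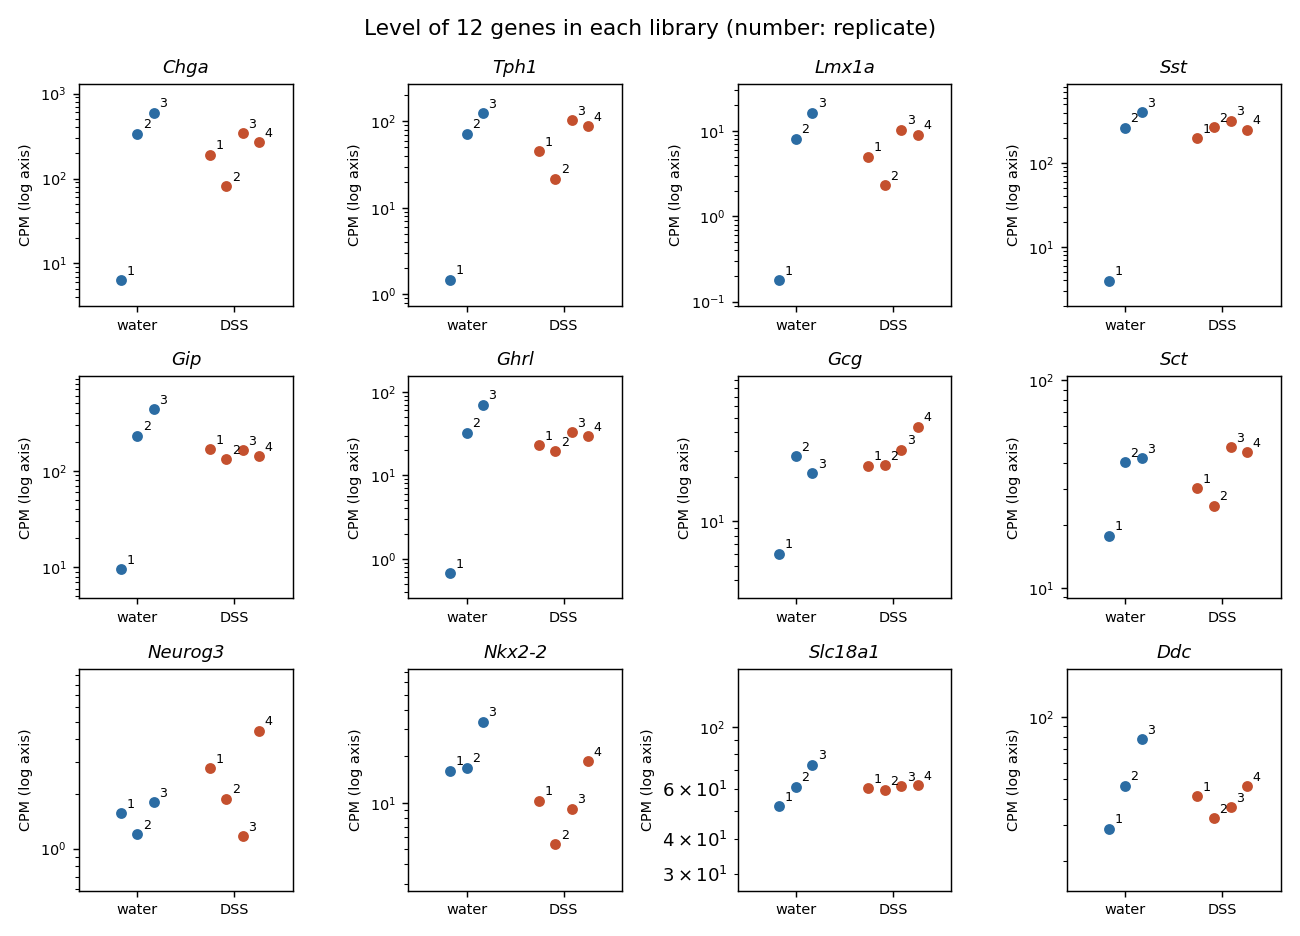
Level in CPM, on a log axis, of 12 of the genes in each water and DSS library, each point marked with its replicate number. Water 1 sits far below the other libraries for Chga, Tph1, Lmx1a, Sst, Gip and Ghrl, and near them for Neurog3, Nkx2-2 and Slc18a1.

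Among 8 hormones, compared per kilobase within each library, Sst made up 12.1, 48.7 and 45.7% of the summed transcripts in the water libraries. In the DSS libraries it made up 49.5, 62.0, 58.6 and 53.9%. Gip made up 25.3, 37.0 and 43.1% in water and 36.2, 26.6, 26.0 and 26.7% in DSS. Sct made up 50.4% in water 1 and between 4.46 and 9.05% in the other 6 libraries, and Gcg 7.37% in water 1 and between 0.964 and 3.79% elsewhere. Water 1 thus had another hormone make-up as well as a lower level. The share of Sst was higher in every DSS library than in every water library, with 49.5% in DSS 1 and 48.7% in water 2 at the closest. These shares were not tested.

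**Figure D4:**
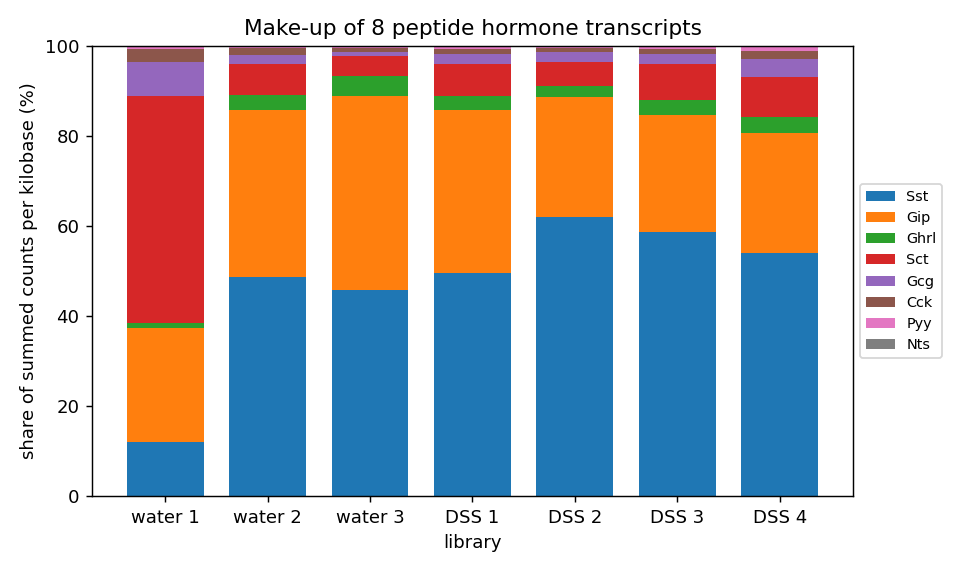
Share of each of 8 peptide hormone transcripts in their summed counts per kilobase, in percent, for each library. Sct makes up 50.4% of the bar of water 1, while Sst and Gip together make up most of every other bar.

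Coupling between the genes was measured as the Pearson correlation of each gene's log2 CPM with that of Chga over the 7 libraries. Water 1 stands apart on this measure, so each value is given with and without it. Of the 34 other genes, 29 had an r of at least 0.8 with Chga, against 3.22% of all 17448 genes. Of the 11444 genes with a mean of at least 5 CPM, 1.53% did. Without water 1 the count was 21 of 34, against 4.95% of all genes, and without water 1 and DSS 2, the libraries farthest from the Chga median, it was 21 again, against 4.75%. The median r was 0.97 for the 34 genes and -0.051 for all genes with 7 libraries, and 0.89 and -0.0093 without water 1.

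Lmx1a, Fev, Chgb and Tph1 had the highest r over all libraries. Lmx1a had r 0.997 (Spearman's rho 0.964, exact permutation p = 0.000595, 0.151 after Benjamini-Hochberg adjustment over all genes), 0.984 without water 1 and 0.950 without water 1 and DSS 2. For Tph1 these r were 0.994, 0.960 and 0.867, with rho 0.964. The smallest p that the 5040 orders of 7 libraries can give is 0.000198, and no enteroendocrine gene passed after adjustment; the lowest adjusted value, 0.133 by the exact permutation test, was that of Ghrl and Cpe.

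The relation of Gcg with Chga rested on water 1. Gcg had r 0.85 with all libraries (rho 0.321, exact permutation p = 0.0748, adjusted 0.9997), 0.027 without water 1 and -0.36 without water 1 and DSS 2. Sst had r 0.94 (rho 0.786, exact permutation p = 0.0129, adjusted 0.514), 0.58 without water 1 and 0.97 without both, so its r moved with the libraries left out. The 5 genes below 0.8 over all libraries were Neurog3 at 0.086, Nkx2-2 at 0.23, Nts at 0.31, Ddc at 0.75 and Pcsk1 at 0.76, and Nkx2-2 and Pcsk1 were at 0.86 and 0.96 without water 1.

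Outside the 35 genes, the 5 with the highest r with Chga at a mean of at least 5 CPM were Slc6a19 (0.999), Gpx3 (0.996), Disp2 (0.994), Ambp (0.993) and Cacna2d1 (0.993). Slc6a19, a transporter of neutral amino acids, was at 2.81, 15.6 and 21.2 CPM in water and at 11.9, 8.48, 15.3 and 14.0 CPM in DSS. Gpx3, a secreted glutathione peroxidase, was at 0.31, 17.5 and 26.9 CPM and at 9.04, 5.33, 14.6 and 14.9 CPM. Both were lowest in water 1 and highest in water 3, as Chga was, which follows in large part from how they were picked. Without water 1 the r of the 5 ran from 0.957 to 0.995.

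A second list of 50 enteroendocrine genes (factors, exocytosis genes, receptors and further hormones) held 42 that passed the filter. Of these, 32 had an r of at least 0.8 with Chga, against 3.22% of all genes, and 20 did so without water 1, against 4.95%. Of the 29 with a mean of at least 5 CPM, 22 ranged at least 2-fold in water, against 1.65% of all genes at that level. Trpa1, an irritant-sensing cation channel of enterochromaffin cells, was at 0.089, 17.2 and 54.5 CPM in water and at 7.27, 2.06, 5.94 and 6.16 CPM in DSS. Rab3c, a small GTPase of regulated secretion, was at 0.27, 11.4 and 31.8 CPM in water and at 6.79, 1.88, 6.08 and 5.95 CPM in DSS. Both stood highest in water 3 and lowest in water 1. Ppy, pancreatic polypeptide, had 0 counts in every library.

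Most markers of other cell types did not range this way among the water libraries. No gene with a mean of at least 5 CPM ranged at least 2-fold among 11 Paneth, 9 tuft, 9 goblet, 8 stem and 2 white blood cell markers, while 2 of 9 enterocyte markers did. The share of all genes at that level was 1.65%. Sis was at 44.6, 83.8 and 129 CPM in water 1 to 3, with r 0.89 with Chga and 0.88 without water 1. Lct was at 12.5, 4.76 and 7.34 CPM, with r -0.42 and 0.84. Of the 10 enterocyte markers, 1 had an r of at least 0.8 with Chga over all libraries, against 3.22% of all genes. Without water 1, 4 did, against 4.95%. Lyz2 is on both the Paneth and the white blood cell list, so the latter rests on Ptprc, the CD45 gene, alone. Tuft markers summed to 600, 673 and 605 CPM in water 1 to 3, goblet markers to 12018, 12120 and 10859 CPM, and enterocyte markers to 1045, 1014 and 1142 CPM. Markers of enteric neurons and glia, cells that share vesicle genes with enteroendocrine cells, summed to 14.4, 25.1 and 26.6 CPM in water and to between 19.3 and 24.0 CPM in DSS. Of these 10 markers, 5 passed the filter, the glial factor Sox10 had 0 counts in every library, and the only one with a mean of at least 5 CPM, Ret, ranged at least 2-fold in water. Their part in the result was not tested.

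Of all 189 genes that ranged at least 2-fold in water, 26 were among the 35, 22 were on the second list and 141 on neither. Of the 55 that ranged at least 10-fold, these numbers were 17, 13 and 25. Of the last 25, 23 had an r of at least 0.8 with Chga, against 1.53% of all genes with a mean of at least 5 CPM. All 55 were lowest in water 1, as Chga was, so a high r follows in large part from how they were picked. The count without water 1 was not taken.

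DSS against water was compared with edgeR's quasi-likelihood test over all 17449 genes, with Benjamini-Hochberg adjustment at 0.05. None of the 35 genes passed in either direction, against a background of 0% of all genes in both. At an unadjusted p under 0.05, 1 of the 35 was lower in DSS and 0 were higher, against 7.35% and 8.36% of all genes. No gene had all DSS libraries above or below all water libraries, against 7.4% and 7.51% of all genes. Estimates were above 0 for 13 genes and below 0 for 22, with 49.7% of all genes above 0, and the median log2 change was -0.037 against -0.0015 for all genes. A difference of mean log2 levels, centred per gene and averaged over the 35, was 0.50 higher in DSS, opposite in sign to the median of edgeR's estimates.

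Nkx2-2 had the lowest p, with a log2 change of -1.03 ± 0.39 (SE, 4 against 3 libraries; unadjusted p = 0.0275, adjusted p = 0.261 by edgeR). Its DSS value in DSS 4 overlapped the water range. Ucn3 had the largest estimate, -2.04 ± 0.96 (adjusted p = 0.347 by edgeR). Slc18a1, at -0.03 ± 0.10, had the smallest standard error, and Chga stood at -0.51 ± 0.97. The standard errors of Chga, Chgb, Sst, Gip and Ghrl ran from 0.80 to 0.97 on the log2 scale, so that 2-fold differences in both directions lay within 2 standard errors of each estimate.

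The direction of the comparison turned with the choice of water library. Without water 1, 31 of the 35 estimates were below 0, with a median of -0.60 against 0.00098 for all genes, and the mean log2 level was lower in DSS (-0.64). Without water 3, 32 of the 35 were above 0, with a median of 0.54 against 0.0054 for all genes. In that fit 0 of the 35 had an unadjusted p under 0.05 by edgeR, and the share of all genes was not taken. Without water 1, 15 of the 35 had an unadjusted p under 0.05 with a lower level in DSS, against 6.82% of all genes, and 0 with a higher one, against 7.16%. All DSS libraries lay below water 2 and water 3 for 12 of the 35, against 12.7%, and above them for 0, against 12.9%. Water 1 was the lowest library for 31 of the 35 genes, so leaving it out raised the water mean of these. Most of the 35 also varied together, so the counts are not of independent genes. None passed after adjustment (lowest adjusted p = 0.217 by edgeR), and 0 of all 17877 genes did.

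For 9 genes the estimate was above 0 with all libraries and below 0 without water 1: Neurod1, Pax6, Isl1, Insm1, Sct, Sst, Pyy, Vwa5b2 and Cacna1a. Neurod1 stood at 0.20 ± 0.72 and -0.35 ± 0.39, and Pax6 at 0.17 ± 0.60 and -0.36 ± 0.25. Others were below 0 in both fits. Gip was at -0.58 ± 0.80 with all libraries and at -1.14 ± 0.21 without water 1. Tac1 was at -0.77 ± 0.75 and -1.32 ± 0.42, and Chga at -0.51 ± 0.97 and -1.09 ± 0.46. Gcg, Neurog3, Pax4 and Nts were above 0 in both fits, Gcg at 0.75 ± 0.42 and 0.33 ± 0.25 and Neurog3 at 0.75 ± 0.42 and 0.77 ± 0.51. Paneth markers summed to 277320 to 293086 CPM in water and to 135235 to 232828 CPM in DSS, and tuft markers to 600 to 673 CPM and to 573 to 1139 CPM. Their part in these values was not tested.

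**Figure D5:**
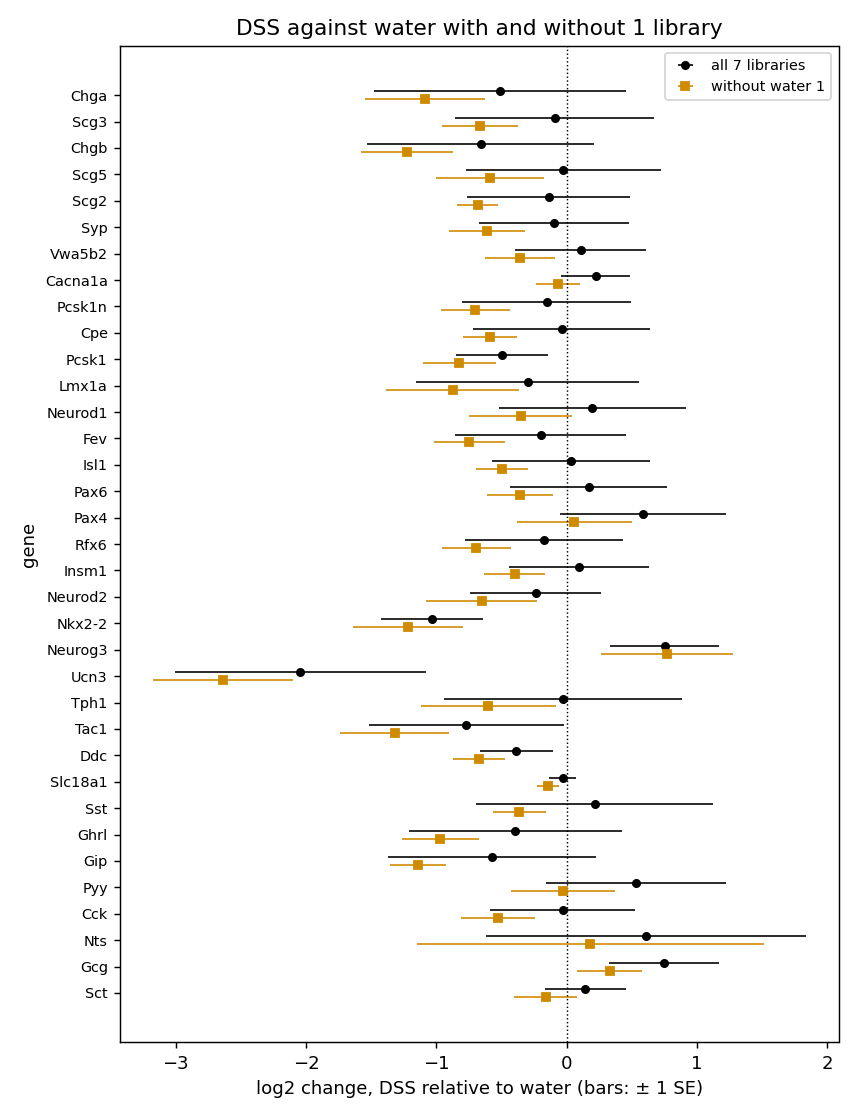
Log2 change in DSS relative to water with 1 standard error for each of the 35 genes, with all 7 libraries (circles) and without water 1 (squares). Without water 1, 31 of the 35 estimates lie below 0, against 22 with all libraries.

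From the second list, the 6 genes with the smallest p were Tox3, Trpa1, Ptprn2, Runx1t1, Rab3c and Foxa2, and none of the 42 passed in either direction. Over all libraries their r with Chga was 0.073 for Tox3, 0.15 for Ptprn2, 0.23 for Runx1t1 and 0.030 for Foxa2, and 0.96 for Trpa1 and Rab3c. Tox3, an HMG-box factor, was at 17.1, 17.6 and 15.3 CPM in water and at 19.8, 22.2, 21.1 and 24.2 CPM in DSS (log2 change 0.39 ± 0.09, adjusted p = 0.139 by edgeR). All its DSS libraries lay above all water libraries, as they did for 7.4% of all genes. Trpa1 stood at -2.18 ± 1.01 and Rab3c at -1.50 ± 0.90. Ptprn2, a phosphatase-like protein of dense-core granules, stood at -0.24 ± 0.11, Runx1t1 at -0.41 ± 0.22 and Foxa2 at -0.19 ± 0.14.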

How the data were processed

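The authors deposited raw counts per gene for each library, made with featureCounts 1.5.3 and GENCODE release 15, per the file headers. The deposited counts take primary alignments that overlap the exons of a gene by a fraction of at least 0.8, ignore strand and keep marked duplicates, again per the file headers. Per the submitters' processing notes, the tools were featureCounts 1.5.2, DESeq2 and STAR 2.5.3a, with mm10 as the build. Symbols came from GENCODE release 21 by identifier (52403 matched, 147 did not).

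Groups came from the labels and replicates were numbered in accession order. In R 4.3.3, edgeR 4.0.16 applied filterByExpr (17449 genes), TMM and the quasi-likelihood test of DSS against water without covariates. CPM values and ratios use TMM factors, and correlations use log2 CPM with a prior count of 2 and exact permutation over 5040 pairings. Ratio intervals are exact binomial at 95%. Alternatives used limma 3.58.1 and DESeq2 1.42.0. The comparison of DSS against water was also run on simulated data of 17152 genes. There, edgeR recovered 47.8% of 67 genes changed 1.5-fold, 94.0% of 67 changed 2-fold and 98.5% of 66 changed 4-fold, with 5 false calls. Recovery was not taken separately for the enteroendocrine genes. Their median biological coefficient of variation was 0.597, against 0.0991 for all genes with a mean of at least 5 CPM. The percentages therefore do not show how often such changes would be found among the enteroendocrine genes.

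The genes, lists and tests were chosen with earlier results of these data known. All 35 genes are named. From the second list the 6 with the smallest p are named, and otherwise the 5 genes with the highest r with Chga at a mean of at least 5 CPM.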

Additional observations from a re-analysis of the deposited data

How the results depend on the processing

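No paired analysis was possible because the replicate numbers follow accession order, and the groups share only 1 number in their titles (19083, in water 3, DSS 2 and DSS 3), whose meaning is not given. The counts of 0 genes higher and 0 lower in DSS held under other size factors, library totals, DESeq2, limma-voom and age as a covariate. They also held with a filter of 1 CPM in 4 libraries and on leaving out each library. Not all 35 genes were tested each time. DESeq2 gave an adjusted p for 30, the filter of 1 CPM kept 32, and leaving out DSS 1 or DSS 4 kept 34. Without a low-count filter 1 gene was lower (Nkx2-2, adjusted p = 0.0394 by edgeR). Over all genes, edgeR called 240 higher and 201 lower without that filter, 2107 and 28 with library totals only, which moved the median of all genes to 0.23, and 168 and 135 without DSS 1; DESeq2 called 347 and 297. Leaving out single libraries moved the mean log2 level in DSS relative to water from -0.64 (without water 1) to 1.22 (without water 3), and the count of genes ranging at least 2-fold in water from 4 (without water 1) to 27. The count with an r of at least 0.8 with Chga stayed between 21 and 31 under all alternatives run for it. At this depth, Ucn3, Nts, Neurod2, Pax4 and Pyy rest on 0 to 3 counts in some libraries.

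No single gene apart from Nkx2-2 crossed the threshold, but estimates changed sign, and the cause was not tested. With library totals only the log2 changes were Scg2 0.10, Scg3 0.16, Scg5 0.23, Neurod2 0.00046, Rfx6 0.072, Fev 0.044, Tph1 0.24, Slc18a1 0.20, Cck 0.22, Pcsk1n 0.091, Cpe 0.21, Syp 0.16. With limma-voom and quality weights they were Chga 0.51, Chgb 0.21, Scg2 0.42, Scg3 0.83, Scg5 0.69, Rfx6 0.24, Fev 0.36, Lmx1a 0.59, Tph1 0.88, Cck 0.28, Gip 0.28, Ghrl 0.73, Nts -1.11, Pcsk1n 0.40, Cpe 0.58, Syp 0.24. With age as a covariate they were Neurod1 -0.11, Pax6 -0.079, Isl1 -0.15, Insm1 -0.049, Sct -0.034, Sst -0.022, Vwa5b2 -0.16. Over leaving out each library, the estimates that changed sign ran as follows: Cacna1a -0.070 to 0.55, Cck -0.53 to 0.36, Chga -1.09 to 0.35, Chgb -1.23 to 0.25, Cpe -0.59 to 0.67, Ddc -0.67 to 0.060, Fev -0.75 to 0.49, Ghrl -0.97 to 0.68, Gip -1.14 to 0.33, Insm1 -0.40 to 0.62, Isl1 -0.50 to 0.75, Lmx1a -0.88 to 0.70, Neurod1 -0.35 to 0.87, Neurod2 -0.65 to 0.16, Pax6 -0.36 to 0.86, Pcsk1n -0.70 to 0.30, Pyy -0.028 to 1.34, Rfx6 -0.69 to 0.59, Scg2 -0.68 to 0.43, Scg3 -0.66 to 0.54, Scg5 -0.59 to 1.02, Sct -0.16 to 0.35, Slc18a1 -0.15 to 0.10, Sst -0.36 to 0.96, Syp -0.61 to 0.42, Tac1 -1.32 to 0.39, Tph1 -0.60 to 0.82, Vwa5b2 -0.36 to 0.79.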

Other observations

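Of the 25 genes that ranged at least 10-fold in water and were on neither enteroendocrine list, the 3 with the widest range were Afp, Asic5 and Trpm2, chosen after their values were seen. Afp, alpha-fetoprotein, was at 0.40, 49.97 and 180 CPM in water 1 to 3 and at 18.4, 3.09, 5.70 and 13.2 CPM in DSS 1 to 4. Asic5, a member of an acid-sensing ion channel family, was at 0.089, 15.4 and 29.9 CPM in water and at 10.3, 10.8, 22.3 and 18.3 CPM in DSS. Trpm2, a cation channel, was at 0.13, 22.4 and 32.2 CPM in water and at 12.1, 6.77, 32.3 and 28.8 CPM in DSS. All 3 were lowest in water 1, as was every gene with so wide a range. Their r with Chga was 0.88, 0.97 and 0.99, or 0.78, 0.85 and 0.92 without water 1. In 54 checks of single values over the 4 DSS libraries, none stood out from the other DSS libraries by Dixon's criterion, and the groups of 3 were not checked.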
